A study of Mus musculus with 16 samples.

Results

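The transcripts of 4 chemokine genes are described here in neutrophils of the mouse liver: Cxcl9, Cxcl10, Cxcl11 and Ccl5. Where made, the products of Cxcl9, Cxcl10 and Cxcl11 are the ligands of the receptor CXCR3. The 4 genes were chosen by symbol, through the annotation of genome build mm10. They are 4 of the 54532 gene identifiers in the count table. All 4 passed the filter on low counts, which left 9851 genes for testing.

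CXCL9, CXCL10 and, in strains that make it, CXCL11 are small secreted proteins that attract cells carrying CXCR3, chiefly activated T cells and NK cells. CCL5, also called RANTES, attracts T cells, monocytes and other leukocytes through receptors that include CCR1 and CCR3. Interferon gamma, made by T and NK cells, binds a receptor built from IFNGR1 and IFNGR2, whose signalling induces Irf1 and the CXCR3 ligand genes. Type I interferons and NF-kB activators such as TNF can also raise Cxcl10 and Ccl5.

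The 16 libraries came from 8 C57BL/6 mixed bone marrow chimeras, mice 2 to 9. Wild-type hosts were irradiated with about 1000 cGy, were given equal parts (50% each) of CD45.1+ wild-type marrow and CD45.2+ marrow of the Ifngr1-/- genotype, and reconstituted for 8 weeks. All carried flank tumours of MC38, a mouse colon carcinoma line, were given a CD40 agonist 1 week after the tumour cells, and gave up their livers 2 days later. Both genotypes therefore shared host, irradiation, tumour and agonist, and no untreated or tumour-free group is part of the comparison. Neutrophils were sorted by CD45 type into 1 WT and 1 Ifngr1_KO library per mouse, so each group has 8 libraries. The comparison asks which of these transcripts differ with the neutrophil's own interferon gamma receptor inside one liver. Genotype, marrow donor, CD45 type and sort gate changed together in every mouse and cannot be told apart. Host cells that survive irradiation are wild type, and the labels do not say which CD45 type the hosts carried.

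On mm10 the CXCR3 ligand genes lie side by side on the minus strand of chromosome 5, within 44.1 kb. Cxcl9 (ENSMUSG00000029417) spans chr5:92321347-92328079, Cxcl10 (ENSMUSG00000034855) chr5:92346638-92348889 and Cxcl11 (ENSMUSG00000060183) chr5:92359544-92365485. The annotation lists Cxcl11 as a polymorphic pseudogene. This class holds genes that encode a protein in some strains but are disrupted in the reference strain. The mice studied here carry that reference background, so the annotation gives no ground to assume a CXCL11 protein in them. Cxcl11 counts are those of a transcript, and no protein was measured. For this gene the term CXCR3 ligand is a family name only. Ccl5 (ENSMUSG00000035042) lies in a separate chemokine cluster at chr11:83525778-83530518, also on the minus strand.

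The promoters of Cxcl9 and Cxcl10 are shown as a description. Whether their letters bear on the depth of either fall was not tested. RefSeq windows on GRCm38.p6, the assembly of mm10, matched 2 of the 4 genes. Each run below is the 250 bases before the start, chr5:92328080-92328329 for Cxcl9 and chr5:92348890-92349139 for Cxcl10, minus strand. Capitals mark matches to an interferon-stimulated response element (ISRE, searched as GAAA, any 2 bases, GAAA), to a gamma-activated site (GAS, TTCNNNGAA) or to either of a pair of NF-kB patterns (a 10-letter one, GGG, any 5 bases, CC, and a 9-letter one, GGGNNTTCC), searched on both strands.
Cxcl9: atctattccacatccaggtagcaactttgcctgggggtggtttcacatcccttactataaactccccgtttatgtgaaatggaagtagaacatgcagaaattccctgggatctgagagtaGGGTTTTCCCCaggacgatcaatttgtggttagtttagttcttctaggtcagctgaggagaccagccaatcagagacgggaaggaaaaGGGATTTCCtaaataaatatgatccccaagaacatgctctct
Cxcl10: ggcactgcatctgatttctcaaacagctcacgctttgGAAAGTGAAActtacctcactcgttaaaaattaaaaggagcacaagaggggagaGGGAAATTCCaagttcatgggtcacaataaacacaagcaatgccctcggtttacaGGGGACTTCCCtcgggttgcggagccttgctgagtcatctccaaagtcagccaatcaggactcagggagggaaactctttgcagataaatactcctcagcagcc
The Cxcl10 window held 1 ISRE match, at -213 to -204 from the start, and the Cxcl9 window held none. An ISRE match was present in 2.97% of the 32817 RefSeq windows of this length. The 9-letter NF-kB pattern stood once in Cxcl10, at -103 to -95, and 2 times in Cxcl9, at -130 to -122 and -42 to -34, against 4.97% of all windows with a match. Its 10-letter form overlaps the 9-letter match of Cxcl10 and the one at -130 to -122 in Cxcl9. A separate 10-letter match stood in Cxcl10, at -159 to -150. The 10-letter form occurred in 45.8% of windows. Neither window held the GAS letters, found in 7.02% of windows, which says nothing about sites written otherwise or lying elsewhere. The longest run shared by both windows was CAGCCAATCAG, 11 bases around a CCAAT box, present on either strand in 0.756% of windows. These are matches of letters, with no measurement of binding.

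Library totals were 12.5 to 21.7 M estimated counts, which include PCR copies since no molecular identifiers were used. Of the 9851 genes, 229 (2.32%) were lower and 47 (0.477%) higher, together 2.8%, in Ifngr1_KO cells at an adjusted p under 0.05 (edgeR quasi-likelihood test with mouse as a block and Benjamini-Hochberg adjustment over all tested genes, used for every adjusted p below unless another test is named). With library totals in place of TMM the split was 164 lower and 102 higher. The median log2 fold change over all tested genes was 0.05. At an unadjusted p under 0.05 the edgeR test gave 1602 of the 9851 genes, counting both directions, and the unadjusted counts below stand beside that share. Ifngr1 itself had 305 ± 46.6 CPM (counts scaled to library size with TMM factors; mean ± SD, n = 8, as for all CPM below) in WT and 83.9 ± 29.5 in Ifngr1_KO libraries, a log2 fold change of -1.94 (SE 0.20, adjusted p = 2.5e-04). Every Ifngr1_KO library was below every WT library, and transcript remained in all of them. Counts per gene do not separate deleted from remaining exons, and which exons are deleted is not given in the labels. The sorted cells carried the neutrophil genes: the summed level of 8 markers, among them S100a8, Csf3r and Ly6g, was 43854 ± 7235 CPM in WT and 45617 ± 16860 in Ifngr1_KO libraries. The medians were 44171 and 41333 CPM, and the sum was higher in Ifngr1_KO cells in 2 of 8 mice. The highest Ifngr1_KO sum was 83274 CPM, in mouse 7 (next 53193). Of the 8 markers 0 were called by edgeR, beside the 2.8% of all tested genes, and 2 were lower at an unadjusted p under 0.05. The other tools called 1 (DESeq2) or 2 (limma-voom) lower. The Ifngr1_KO library of mouse 7 stood apart, with a median correlation of 0.762 to the other libraries and 2.50% mitochondrial counts, the most of any library, so values without mouse 7 are given below.

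All 4 chemokine transcripts fell in Ifngr1_KO neutrophils, each in 8 of 8 mice, beside the 2.32% of all tested genes called lower. Fitted folds ran from 2.82 for Cxcl10 to 9.79 for Ccl5. On the log2 scale Ccl5 ranked 42, Cxcl9 97, Cxcl11 135 and Cxcl10 300 among the 9851 genes ordered from the deepest fall. None of the 17 other ways of fitting turned a direction. In a bulk sample, fewer cells making a transcript and less of it per cell cannot be told apart.

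**Figure D1:**
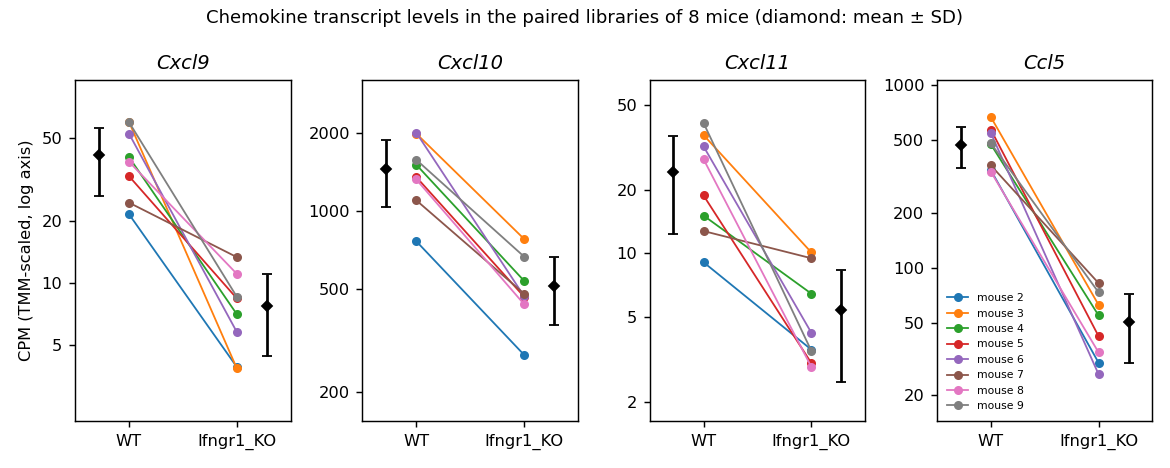
TMM-scaled CPM of the 4 chemokine genes on log axes in the WT and Ifngr1_KO library of each mouse; a line joins the libraries of 1 mouse, and diamonds with bars are the mean ± SD of 8 libraries. All 32 lines slope down, and the groups do not overlap for Cxcl9 and Ccl5.

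Cxcl10, the most abundant CXCR3 ligand, ranged in WT libraries from 764 CPM in mouse 2 to 2007 CPM in mouse 6, with a median of 1431 CPM. The Ifngr1_KO libraries ranged from 279 CPM, again in mouse 2, to 781 CPM in mouse 3, with a median of 475 CPM. The groups overlapped by 1 library: the highest Ifngr1_KO library, of mouse 3, lay just above the lowest WT library, of mouse 2. Within mice the separation was complete. The means were 1453 ± 421 and 515 ± 152 CPM, a log2 fold change of -1.49 (SE 0.11, adjusted p = 2.0e-05). Cxcl10 had the evenest response of the 4 genes, with within-mouse log2 changes from -2.09 in mouse 6 to -1.20 in mouse 7 (SD 0.28). Ifngr1_KO neutrophils kept 35.4% of the WT mean, and their lowest library still held 4908 counts.

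Cxcl9, the CXCR3 ligand known as the monokine induced by interferon gamma, was far less abundant. WT libraries held from 21.5 CPM in mouse 2 to 60.0 CPM in mouse 3, with a median of 39.5 CPM, which is 331 to 1043 counts. Ifngr1_KO libraries held from 3.86 CPM in mouse 3 to 13.3 CPM in mouse 7, with a median of 7.73 CPM, which is 58 to 159 counts. The groups did not overlap, and the lowest WT library was 1.61 times the highest Ifngr1_KO library. Over all tested genes, 1.48% had every Ifngr1_KO library below every WT library. Cxcl9 had a log2 fold change of -2.44 (SE 0.32, adjusted p = 0.00148), and the Ifngr1_KO mean was 18.8% of the WT mean. Within-mouse log2 changes spread widely, from -3.91 in mouse 3 to -0.87 in mouse 7 (SD 0.92). Mouse 3 had both the highest WT and the lowest Ifngr1_KO level of Cxcl9.

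Cxcl11 was the scarcest of the 4. WT libraries ranged from 9.09 CPM in mouse 2 to 41.3 CPM in mouse 9, with a median of 23.3 CPM. Ifngr1_KO libraries ranged from 2.92 CPM in mouse 8 to 10.1 CPM in mouse 3, with a median of 3.88 CPM and as few as 38 counts. The groups overlapped at their edge, where the Ifngr1_KO libraries of mice 3 and 7 lay above the WT library of mouse 2. Cxcl11 had a log2 fold change of -2.15 (SE 0.38, adjusted p = 0.0126), and within-mouse log2 changes ran from -3.52 in mouse 9 to -0.42 in mouse 7 (SD 1.09). The mitochondrial share of counts was 1.39 ± 0.66% in Ifngr1_KO and 0.595 ± 0.272% in WT libraries and was higher in Ifngr1_KO cells in 6 of 8 mice. With that share as a covariate Cxcl11 stayed lower, at -1.93, but was no longer called (adjusted p = 0.284), while Cxcl9 (-2.99), Cxcl10 (-1.56) and Ccl5 (-3.58) were still called.

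Ccl5 fell the most. WT libraries held from 335 CPM in mouse 8 to 668 CPM in mouse 3, with a median of 477 CPM. Ifngr1_KO libraries held from 26.1 CPM in mouse 6 to 82.2 CPM in mouse 7, with a median of 48.4 CPM. The gap between the groups was wide, with the lowest WT library at 4.08 times the highest Ifngr1_KO library. The means of 472 ± 120 and 50.7 ± 20.8 CPM gave a log2 fold change of -3.29 (SE 0.23, adjusted p = 1.6e-05), so 10.7% of the WT mean remained. Within-mouse log2 changes ran from -4.38 in mouse 6 to -2.14 in mouse 7 (SD 0.67).

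Mouse 7 had the smallest fall of all 4 chemokines, although its Ifngr1 transcript fell further than in any other mouse (log2 change -2.88). Its Ifngr1_KO library held 74.4% of the level of its WT partner for Cxcl11, 54.5% for Cxcl9, 43.6% for Cxcl10 and 22.7% for Ccl5. That library is the one that stood apart from the rest. Without mouse 7 the log2 fold changes were -2.66 for Cxcl9, -1.54 for Cxcl10, -2.40 for Cxcl11 and -3.45 for Ccl5, and all 4 were called.

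**Figure D2:**
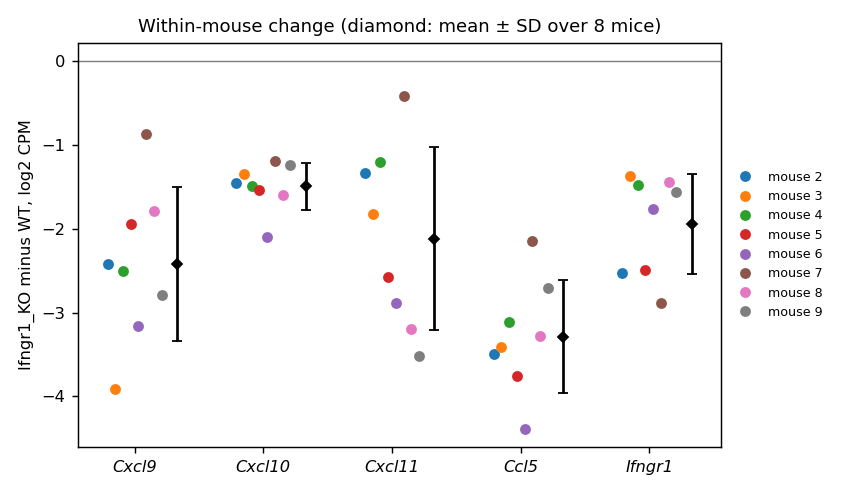
Within-mouse log2 change (Ifngr1_KO minus WT, log2 CPM with a prior count of 2) of the 4 chemokine genes and Ifngr1; each point is 1 of 8 mice and the bar is the mean ± SD. Every point lies below 0, Cxcl10 is the tightest (SD 0.28), and mouse 7 is the highest point for all 4 chemokines and the lowest for Ifngr1.

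The depth of the fall differed between genes in the same mice. The exact two-sided sign-flip test over 8 mice, whose smallest possible p is 0.00781, was applied to the 6 pairs and adjusted over them. Ccl5 fell further than Cxcl10 by 1.79 log2 units (95% interval 1.37 to 2.18 from the same test) in 8 of 8 mice (exact p = 0.00781, adjusted p = 0.0469). It also fell further than Cxcl11, by 1.17 (0.26 to 1.88) in 7 of 8 mice, and than Cxcl9, by 0.86 (0.17 to 1.51) in 6 of 8 mice (exact test, adjusted p = 0.0469 for both). Cxcl9 fell further than its neighbour Cxcl10 in 7 of 8 mice, with a difference of -0.93 (-1.72 to -0.27; exact test, adjusted p = 0.0469). No difference was detected between Cxcl9 and Cxcl11, at -0.30 (-1.28 to 0.68; exact test, adjusted p = 0.50), or between Cxcl10 and Cxcl11, at 0.63 (-0.20 to 1.56; exact test, adjusted p = 0.159), and these intervals reach past 1 log2 unit. These adjusted values sit close to the threshold. With any 1 mouse left out, 7 mice allow no exact p below 0.0156, and the adjusted p for Cxcl10 against Ccl5 ran from 0.0469 to 0.0938 while the difference stayed between 1.72 and 1.91.

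The unlike falls changed the make-up of the 4-gene set. Per kb of annotated exon, WT levels were 645 ± 187 CPM for Cxcl10, 492 ± 125 CPM for Ccl5, 13.7 ± 4.98 CPM for Cxcl9 and 6.36 ± 3.12 CPM for Cxcl11. In Ifngr1_KO libraries they were 229 ± 67.5, 52.8 ± 21.7, 2.57 ± 1.10 and 1.43 ± 0.775 CPM per kb in the same order of genes. Cxcl10 and Ccl5 thus made up nearly all of the summed level in both genotypes. Cxcl10 held 55.4 ± 4.59% of the summed level per kb in WT and 80.2 ± 5.14% in Ifngr1_KO libraries, while Ccl5 held 42.9 ± 4.86% and 18.3 ± 4.89%. The CPM ratio of Cxcl10 to Ccl5 had a median of 3.11 (range 2.24 to 3.95) in WT and 10.5 (range 5.84 to 18.0) in Ifngr1_KO libraries, with no overlap.

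The order Cxcl10, Ccl5, Cxcl9, Cxcl11 held in 7 of 8 mice in each genotype. The first 2 places in WT cells depended on the length used and their spreads overlapped: with the longest annotated transcript Ccl5 reached 707 CPM per kb and came first in WT cells, with the order Ccl5, Cxcl10, Cxcl9, Cxcl11 in 6 of 8 mice. Among 9849 genes ranked by level per kb of exon in WT cells, Cxcl10 stood at 132 and Ccl5 at 172, against 1994 for Cxcl9 and 3085 for Cxcl11. In Ifngr1_KO cells the places were 285, 794, 4840 and 6096. Cxcl10 and Ccl5 were therefore among the abundant transcripts of WT liver neutrophils, and Cxcl10 stayed so without the receptor.

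WT levels of the CXCR3 ligands were correlated across mice. In all, 16 relations were computed with exact permutation tests over 8 mice and adjusted over all 16. In WT cells Cxcl9 and Cxcl10 had a Pearson r of 0.918 (exact p = 6.7e-04, adjusted p = 0.00833) and a Spearman rho of 0.905 (exact test, adjusted p = 0.0365). For Cxcl9 and Cxcl11 they were 0.932 (exact p = 0.00104, adjusted p = 0.00833) and 0.905 (exact test, adjusted p = 0.0365). Cxcl10 and Cxcl11 had r = 0.840 (exact test, adjusted p = 0.0354) and rho = 0.810 (exact test, adjusted p = 0.116). Mouse 2 had the lowest WT level of all 3 CXCR3 ligands, and mice 3, 6 and 9 had the 3 highest of each. Without mouse 7 the r values of Cxcl9 with Cxcl10 and with Cxcl11 were 0.924 and 0.923 (exact tests, adjusted p = 0.0429 for both), and that of Cxcl10 with Cxcl11 was 0.822 (exact test, adjusted p = 0.0794). Without the 2 mice farthest from the median on the x axis, these r values were 0.791, 0.815 and 0.702 and no longer passed (exact tests, adjusted p = 0.35, 0.35 and 0.369). The mice left out were 2 and 7, or 2 and 6 for Cxcl10 with Cxcl11. With them out the relations no longer held at the threshold, over 6 mice in place of 8. None of the 3 relations of WT Ccl5 passed. Its r was 0.786 to Cxcl10, 0.693 to Cxcl9 and 0.559 to Cxcl11 (exact tests, adjusted p = 0.0576, 0.170 and 0.262). Without mice 2 and 6 the r of Ccl5 with Cxcl10 was 0.775 (exact test, adjusted p = 0.35). Whether these r values differ from those among the CXCR3 ligands was not tested.

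Among Ifngr1_KO libraries none of the 6 relations passed. Cxcl9 and Cxcl10 had r = 0.05 (exact test, adjusted p = 0.915) and Cxcl10 and Ccl5 had r = 0.645 (exact test, adjusted p = 0.177). Whether the correlations differ between the genotypes was not tested, and Ifngr1_KO values of Cxcl9 and Cxcl11 rest on few counts. Cxcl10 was the gene whose levels in both genotypes of a mouse went together most closely, with r = 0.806 (exact p = 0.0180, adjusted p = 0.0576) and 0.866 without mice 2 and 6, though it missed the adjusted threshold. For Cxcl9, Cxcl11 and Ccl5 the same r was -0.178, -0.07 and 0.135.

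**Figure D3:**
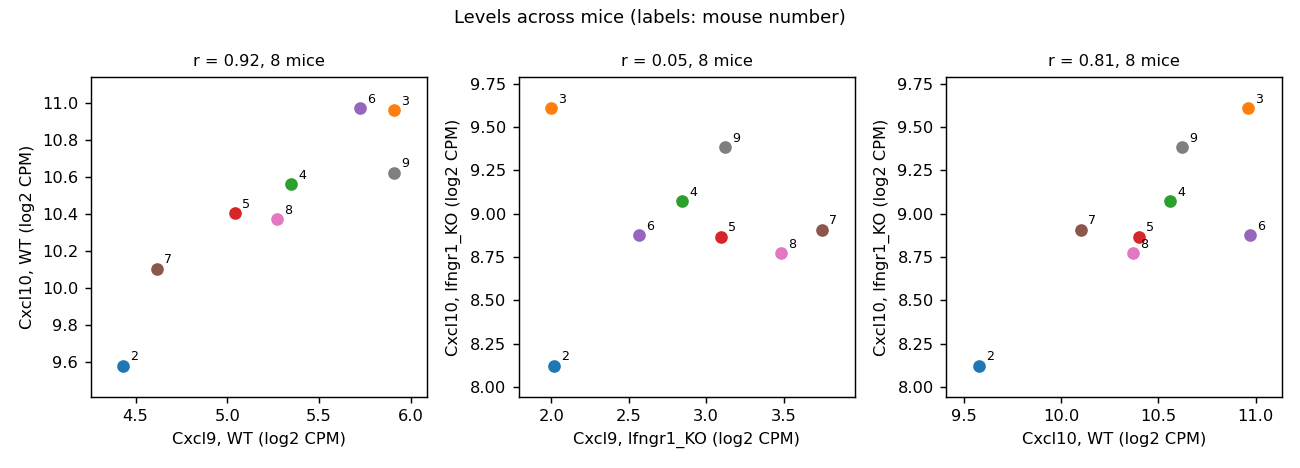
Log2 CPM (prior count 2) in 8 mice, each point labelled with its mouse number: WT Cxcl10 against WT Cxcl9 (r = 0.918), the same genes in Ifngr1_KO cells (r = 0.05), and Ifngr1_KO against WT levels of Cxcl10 (r = 0.806). In the WT panel mouse 2 is lowest on both axes; in the Ifngr1_KO panel mouse 3 pairs the highest Cxcl10 with the lowest Cxcl9.

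Genes whose levels most resembled each chemokine were ranked over 16 libraries after subtracting the genotype means, among 4513 genes, as a description with no test. The libraries of mouse 7 are included, and no r of this ranking is given without them. Cxcl10 was most like Gadd45b (r = 0.895), a stress-induced gene that did not pass the genotype test (1033 ± 316 against 1103 ± 345 CPM), and Slc23a2 (0.888), which encodes a vitamin C transporter. Next came Tmem140 (0.853), which fell by 1.55 on the log2 scale (adjusted p = 1.1e-05), and Ifi47 (0.852), an interferon-induced GTPase gene that fell by 2.56 (adjusted p = 2.8e-06). Ccl5 was most like Rtp4 (0.884), D17Wsu92e (0.874), Rilpl2 (0.873) and Ccl4 (0.848), a gene of the same family, none of which was called by edgeR. Rtp4 had a log2 fold change of -0.35 (edgeR adjusted p = 0.0600) and was called lower in 4 of 17 alternatives, namely DESeq2, limma-voom, the T and NK marker covariate and without mouse 7. For Cxcl9 they were Ypel5 (0.805), AW112010 (0.796), Znrd1 (0.786) and Sod2 (0.760). AW112010 fell from 264 ± 61.7 to 23.5 ± 8.84 CPM, a log2 fold change of -3.56 (adjusted p = 1.1e-05). For Cxcl11 they were Ctss (0.869), which encodes cathepsin S, Slc31a2 (0.792), the proteasome activator gene Psme2 (0.758) and Bcl2a1d (0.756). Ctss (-1.08, adjusted p = 2.3e-04) and Psme2 (-1.74, adjusted p = 7.3e-05) fell. On this measure the r between Cxcl10 and Ccl5 was 0.676, and between Cxcl9 and Cxcl10 it was 0.461.

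No other chemokine gene tested was called lower. Of 26 listed, 14 were tested, 0 were called lower and 1 was called higher, beside 2.32% and 0.477% of all tested genes. For so few genes, 0 called lower is near the share over all genes. The median log2 fold change was 0.20 beside 0.05 for all tested genes. At an unadjusted p under 0.05 the edgeR test gave 0 lower and 2 higher, Cxcl2 and Cxcl3, and DESeq2 and limma-voom also called 0 lower. Cxcl3, a neutrophil attractant read by CXCR2, rose from 10.9 ± 4.03 to 23.4 ± 7.93 CPM, higher in 8 of 8 mice (log2 fold change 1.12, SE 0.21, adjusted p = 0.0167). It was no longer called without mouse 3, 8 or 9 or with the mitochondrial share as a covariate (1.41, adjusted p = 0.0783). Cxcl2, of the same group, had 2855 ± 554 and 3792 ± 1256 CPM (log2 fold change 0.37, adjusted p = 0.175), and without mouse 7 it passed at 0.24 (adjusted p = 0.0312). The related genes Ccl3, with 1161 ± 255 and 1331 ± 429 CPM, and Ccl4, with 1633 ± 326 and 1766 ± 818 CPM, were not called (adjusted p = 0.501 and 0.973).

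The 4 chemokines were set against the other chemokine genes with a WT mean of at least 100 CPM, namely Ccl3, Ccl4, Ccl6 and Cxcl2. This comparison was chosen after the values were seen, so its p-values describe the gaps and give no independent support. In each of the 16 pairings the chemokine named above changed more negatively in 8 of 8 mice (exact sign-flip test, p and adjusted p = 0.00781 for all, the smallest the design allows). The gap ran from -1.52 log2 units (95% interval -1.83 to -1.25) for Cxcl10 against Ccl4 to -3.66 (-4.09 to -3.30) for Ccl5 against Cxcl2. Ccl5 and Ccl4, whose levels moved alike once genotype means were removed, differed by -3.31 (-3.63 to -2.98).

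**Figure D4:**
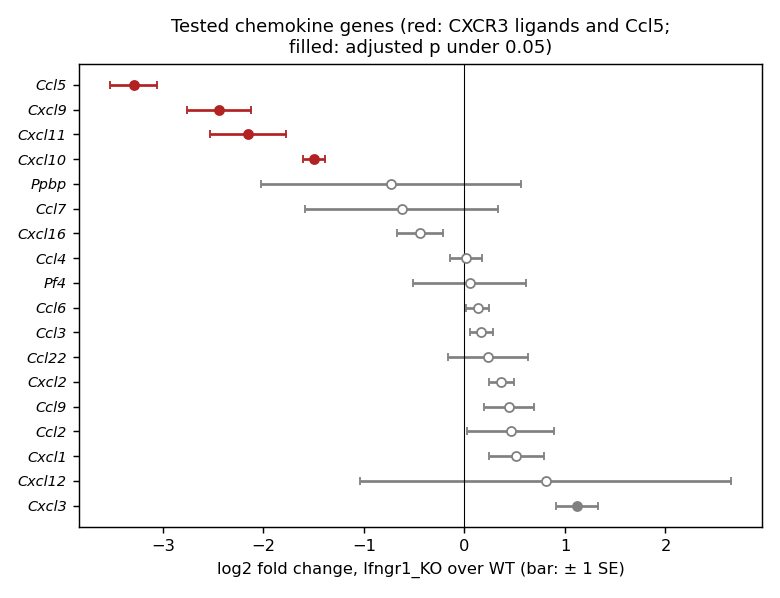
Fitted log2 fold change (Ifngr1_KO over WT, edgeR) with its SE for the 4 chemokine genes and the 14 other chemokine genes tested. The 4 lie between -3.29 and -1.49, and among the others the call is Cxcl3 at 1.12.

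Most receptor genes of these ligands were too sparse to test. Of 8 genes for receptors and processing, 2 were tested and 0 called by edgeR, DESeq2 or limma-voom, with 0 at an unadjusted p under 0.05. Over all tested genes edgeR called 2.8%, so 0 of 2 is near that share. Ccr1, a CCL5 receptor gene, had 483 ± 96.0 CPM in WT and 407 ± 48.2 in Ifngr1_KO libraries (log2 fold change -0.24, adjusted p = 0.326). Cxcr3 was near the detection floor, at 4.49 ± 1.69 and 6.12 ± 3.46 CPM (0.14, adjusted p = 0.944). Ackr1 and Ackr2, which encode scavenging receptors, had no count in any library.

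Of 12 genes of interferon gamma signalling, all tested, 4 were called lower, beside 2.32% of all tested genes, and 0 higher. The median log2 fold change was -0.25 beside 0.05 for all tested genes. At an unadjusted p under 0.05 the edgeR test gave 6 lower and 0 higher. Among the 4 were Irf1, Irf2 and Ifngr1 itself, the gene altered by the genotype, whose fall is no independent result. Irf1, an interferon-induced factor that binds the ISRE, fell from 2478 ± 677 to 482 ± 155 CPM (-2.40, SE 0.19, adjusted p = 4.1e-05). Irf2, a related factor that can oppose IRF1, fell from 222 ± 47.9 to 117 ± 16.2 CPM (-0.90, adjusted p = 4.4e-04). The receptor's other chain, Ifngr2, was not called (97.2 ± 62.3 against 144 ± 90.3 CPM, adjusted p = 0.324).

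In the type I interferon list 1 of 8 genes was called lower, beside 2.32% of all tested genes, with a median of -0.25 beside 0.05. The called gene was Stat2 (-1.18, SE 0.19, adjusted p = 0.00631), which lost its call with the mitochondrial share as a covariate (-0.76, adjusted p = 0.293). At an unadjusted p under 0.05 the edgeR test gave 3 lower and 0 higher. Tyk2 (-0.67, adjusted p = 0.0819) and Irf9 (-0.47, adjusted p = 0.0856) were lower in 8 of 8 mice but not called. Of 11 genes of NF-kB and TNF signalling 3 were called lower, beside the same 2.32%, with a median of -0.32. At an unadjusted p under 0.05, 6 of these 11 were lower and 0 higher. Cd40, which encodes the receptor that the agonist targets, fell from 91.4 ± 30.9 to 18.7 ± 8.19 CPM (-2.32, SE 0.15, adjusted p = 6.2e-06). Nfkbie (-0.67, adjusted p = 0.0156) and Tnf (-0.42, adjusted p = 0.0198) were called less firmly: without the mouse block their adjusted p-values were 0.145 and 0.165, and with library totals they were 0.0507 and 0.0873. Both also lost their call without mouse 3, 6 or 8, and Tnf without mouse 4, 5 or 9 as well.

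Markers of other cells that make these chemokines were examined because T and NK cells are a known source of Ccl5 and macrophages of Cxcl9. Of 12 T and NK cell markers 5 were tested and 0 called by edgeR, DESeq2 or limma-voom, with 0 at an unadjusted p under 0.05. Over all tested genes edgeR called 2.8%. Nkg7, at 3.85 and 4.81 CPM in WT and Ifngr1_KO libraries, and Cd3d, at 2.76 and 3.33, were the highest. Cd3e, Trac and Ncr1 were below 1 CPM on average in both groups. Cd8a, too sparse to test, was at 1.01 ± 1.27 and 0.133 ± 0.157 CPM and was lower in Ifngr1_KO cells in 6 of 8 mice. The summed level of the 12 was 14.1 ± 5.21 CPM in WT (8.88 to 24.5) and 13.5 ± 5.84 CPM in Ifngr1_KO libraries (8.52 to 26.8). That sum was higher in Ifngr1_KO cells in 4 of 8 mice. With that sum as a covariate the log2 fold changes were -3.22 for Ccl5, -1.47 for Cxcl10, -2.38 for Cxcl9 and -2.06 for Cxcl11, and all 4 were called. Of 10 Kupffer cell and macrophage markers 6 were tested and 1 was called lower, beside 2.32% of all tested genes. Their summed level was 1603 ± 205 CPM in WT (1242 to 1892) and 1350.1 ± 432 in Ifngr1_KO libraries (380.1 to 1762), most of it Csf1r at 1497 ± 192 and 1287 ± 426 CPM. Clec4f and Timd4, which define Kupffer cells, were at most 0.150 CPM on average and Vsig4 had no count. Other genes of the list were present at low levels in WT and Ifngr1_KO libraries and were not called: C1qb at 14.8 and 13.3 CPM, C1qc at 6.21 and 5.35, C1qa at 5.62 and 5.16, and Cd5l at 1.64 and 1.95. Adgre1 fell by 1.11 (adjusted p = 0.0108), a call lost with the mitochondrial share as a covariate (-0.71, adjusted p = 0.388).

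Of 4 monocyte markers, all tested, 1 was called lower, beside 2.32% of all tested genes. This was Ly6c2, which fell by 0.73 (adjusted p = 0.00543) but was not called with the mitochondrial share as a covariate (-0.83, adjusted p = 0.0651). The summed level of the 4 was 1223 ± 207 CPM in WT (1017 to 1648) and 751 ± 192 in Ifngr1_KO libraries (512 to 1109), almost all of it Ly6c2. The monocyte gene Ccr2 was at 0.836 and 1.38 CPM. Summed dendritic cell markers were at 3.41 ± 1.63 and 2.91 ± 3.25 CPM, with 1 of 6 tested and 0 called. The part of the Adgre1 and Ly6c2 differences in the chemokine results was not tested. B cell (12.9 and 14.8 CPM), endothelial (8.79 and 6.78 CPM) and hepatocyte markers (237 and 250.4 CPM) had 0 called by edgeR, with 1 hepatocyte gene lower at an unadjusted p under 0.05 and by DESeq2. With few genes tested per marker list, 0 called is near the 2.8% of all tested genes that edgeR called.

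Of the genes overlapping or next to the 4 chemokine genes, none but those genes themselves was called by edgeR. Art3 (chr5:92331827-92414628), on the plus strand, runs across Cxcl10 and Cxcl11 and shares 133 exon bases with Cxcl10. Its levels were 3.69 ± 2.96 and 1.87 ± 3.004 CPM (log2 fold change -1.74, SE 0.59, adjusted p = 0.162). Over 17 alternatives its log2 fold change ran from -2.14 to -0.98, the latter without the mouse block, and 1 of them, DESeq2, called it lower (adjusted p = 0.0234). Its counts of 0 to 133 per library compare with at least 4908 for Cxcl10. The libraries do not mark strand, so reads from the shared bases cannot be told apart. The processed pseudogene Gm2673 shares 1582 exon bases with Cxcl11 on the opposite strand and was assigned 0 counts in every library, so Cxcl11 values carry that uncertainty. Nup54 (10.4 ± 3.29 and 9.89 ± 4.36 CPM, adjusted p = 0.808) and Sdad1 (1.37 ± 1.91 and 1.21 ± 1.11 CPM, adjusted p = 0.840), the next protein-coding genes outside the cluster, were not called. Beside Ccl5, Ccl9 had 12.1 ± 3.93 and 16.4 ± 5.27 CPM (0.44, adjusted p = 0.412), and Heatr9 was not tested, with at most 9 counts in a library.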

How the data were processed

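Per the labels' protocols, oligo-dT primed cDNA was prepared with SMARTseq V4 chemistry from an input of 1 ng, 13 PCR cycles and Nextera XT. The deposited values are whole-number estimated counts per gene, not scaled between samples; the submitters' processing notes name Salmon 0.14.2, DESeq2 1.22.1 and mm10, and the rounding step is not given in the sources used here. Sample titles gave the group and the mouse number. The series design text says that libraries with 1 number came from 1 mouse, so mouse was a block. As a check, the deviations of the paired libraries from their group means correlated at 0.138 on average (0.0246 to 0.314), against -0.0180 between mice.

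The count model was edgeR 4.0.16 (R 4.3.3): filterByExpr (9851 genes, 99.7% of counts), TMM, glmQLFit and glmQLFTest (robust), Benjamini-Hochberg over all genes tested, threshold 0.05. SE values were derived from the fold change and its F statistic (absolute log2 fold change over the root of F). Per-mouse log2 CPM used a prior count of 2. Exact sign-flip and permutation tests ran in Python with scipy 1.17.1. Alternatives were no block, DESeq2 1.42.0 size factors or library totals, other filters, DESeq2, limma-voom (limma 3.58.1), covariates, other prior counts and each mouse left out. The edgeR test was tested on simulated data.

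The members, gene lists and tests were chosen with earlier results of these data known. Named genes are the 4 chemokines and Ifngr1; per chemokine the 4 most correlated genes among those averaging a log2 CPM of 3 or more, skipping predicted genes; per list up to 4 called genes, or 2 abundant ones where none was called; and overlapping or nearest genes. A few others (Cxcl2, Ccl3, Ccl4, Ccl6, Ifngr2, single markers) were named after their values were seen. Some listed genes that the rule covers are not reported here. Nothing in the labels says that the groups hold technical replicates; each mouse gave 1 library per genotype. The totals of 12.5 to 21.7 M counts set the precision, and Cxcl11 rests on as few as 38 counts.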

Additional observations from a re-analysis of the deposited data

Results flagged for a closer look

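Of 32 groups of 8 values examined for a library far from the others, 7 held one, and chance gives about 1 in 20. The within-mouse log2 change of Cxcl10 was -2.09 in mouse 6, with the next deepest at -1.60. Of the 7, 4 came from the Ifngr1_KO library of mouse 7, the mouse with the smallest fall of each chemokine. In that library the summed neutrophil markers were highest, at 83274 CPM (next 53193), as were the T and NK cell markers, at 26.8 CPM (next 14.6), and the dendritic cell markers, at 10.3 CPM (next 4.64), while the Kupffer cell and macrophage markers were lowest, at 380.1 CPM (next 1219.6). The monocyte markers were highest in the WT library of mouse 5, at 1648 CPM (next 1305). Art3, which overlaps Cxcl10 and Cxcl11, reached 9.11 CPM in the Ifngr1_KO library of mouse 9 (next 1.95).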

How the results depend on the processing

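Over 17 alternatives the log2 fold change ran from -2.99 to -2.23 for Cxcl9, -1.56 to -1.38 for Cxcl10, -2.42 to -1.93 for Cxcl11 and -3.58 to -3.14 for Ccl5. Cxcl9, Cxcl10 and Ccl5 were called in 17 of 17 and Cxcl11 in 16, being lost at -1.93 (adjusted p = 0.284) with the mitochondrial share as a covariate; the cause was not tested. Without the replicate block the 4 values were -2.42, -1.50, -2.16 and -3.22, all called, and the pairing changed no call among the chemokines, but NF-kB and TNF genes called lower dropped from 3 to 1.

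Over all genes, 229 lower and 47 higher became 572 and 488 with DESeq2, 425 and 172 with limma-voom, 85 and 8 with the mitochondrial covariate, 440 and 183 with the T and NK marker covariate, 164 and 102 with library totals and 196 and 31 with no low-count filter. Library totals moved the median of all genes from 0.05 to 0.16. With 1 mouse left out they were 144 to 334 and 19 to 78, the highest both without mouse 7 and the lowest without mouse 3 (144 lower also without mouse 8).

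Other chemokine genes called higher numbered 2 with limma-voom, 0 with the mitochondrial covariate, 2 with the T and NK covariate and 0 to 2 with a mouse left out. Type I interferon genes called lower numbered 3 with DESeq2, limma-voom or the T and NK covariate, 0 with the mitochondrial covariate and 1 to 2 with a mouse left out. NF-kB and TNF genes called lower numbered 1 with library totals or the mitochondrial covariate, 5 with the T and NK covariate and 1 to 4 with a mouse left out.

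With a prior count of 0.5 the difference between Cxcl9 and Ccl5 was 0.85 (exact test, adjusted p = 0.0586). With 1 mouse left out the differences ran from -1.11 to -0.69 for Cxcl9 minus Cxcl10 (past the threshold in 1 of 8), 0.73 to 1.06 for Cxcl9 minus Ccl5 (0 of 8), 1.72 to 1.91 for Cxcl10 minus Ccl5 (2 of 8) and 1.02 to 1.45 for Cxcl11 minus Ccl5 (1 of 8), with fewer mice to test. The WT correlations without the 2 farthest mice were 0.791 (Cxcl9 and Cxcl10), 0.815 (Cxcl9 and Cxcl11) and 0.702 (Cxcl10 and Cxcl11). Depth limits Cxcl11 and Ifngr1_KO Cxcl9 most.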
